A study of Mus musculus with 36 samples.

Results

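The genes described here are 10 markers of Kupffer cells, the resident macrophages of the liver: Clec4f, Vsig4, Timd4, Cd5l, Marco, Adgre1, C1qa, C1qb, C1qc and Csf1r. They are a named list of resident macrophage genes, and the rule that defines the list uses no measured value, although earlier results of these data were known when it was drawn up. All 10 were found among the 53715 gene identifiers of the count table, and all 10 were among the 14068 genes that passed the filter on low counts. RNA was sequenced from the livers of 36 male C57BL/6 mice aged 10 weeks, 12 libraries per diet. The control mice ate AIN93G, a purified rodent diet, the red group ate AIN93G with 10% red tomato powder, and the tangerine group ate AIN93G with 10% tangerine tomato powder. The diets began at 4 weeks of age and lasted 6 weeks. No group carried a genetic change, a transgene or a drug. Libraries are named here by diet and mouse number, for example Control 137.

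Kupffer cells sit in the liver sinusoids, where they take up microbes, worn-out blood cells and debris from the blood. They arise largely from fetal precursors, renew themselves in the tissue, and depend on signalling through the receptor encoded by Csf1r. Their identity is kept by signals from the neighbouring endothelial cells, stellate cells and hepatocytes. In whole liver RNA they are a small source beside the hepatocytes.

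Levels are given as CPM, read counts relative to the total of each library, with that total adjusted by TMM, the edgeR scaling that trims extreme genes. In a bulk sample, fewer cells of a type and less RNA per cell cannot be told apart. Libraries held 21290169 to 33810573 counts and their scaling factors ran from 0.937 to 1.10. Markers of the labelled tissue were high in every library: 8 hepatocyte genes together held between 90387 and 129051 CPM. A list of 10 T and NK cell genes, of which 4 passed the filter, summed to 1.93 to 5.40 CPM in the control libraries and reached 213 CPM in Red 186. In the control library Control 137 the 11 tested markers of sinusoidal endothelium summed to 146 CPM, against a control median of 394 CPM. That library was also the shallowest of the 36, and it touches most results below.

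The genes lie at 8 places in the genome (GENCODE M21, GRCm38), and all are protein coding. The C1q chains are neighbours on the minus strand of chromosome 4, C1qb at chr4:136880129-136886187, C1qc at chr4:136889804-136893065 and C1qa at chr4:136895917-136898803. Clec4f is at chr6:83644542-83656187 on the minus strand, Vsig4 at chrX:96247203-96293438 on the minus strand, and Marco at chr1:120474538-120505024 on the minus strand. Timd4 is at chr11:46810800-46844332, Cd5l at chr3:87357881-87371073 and Adgre1 at chr17:57358691-57483527, and these 3 are on the plus strand. The position of Csf1r is given with its values.

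Upstream sequence was available for 7 of the 10 genes, from RefSeq with build GRCm38.p6 (the 250 bases before the start of each gene), and not for C1qa, Adgre1 or Csf1r. The sequences of 5 genes that rose and fell together between mice are shown. Capitals mark GAGGAA or its reverse complement TTCCTC, the core of the motif of PU.1, the myeloid factor encoded by Spi1. Timd4 also varied with these 5 genes (Pearson's r 0.728 with C1qb to 0.894 with Cd5l, diet means removed). It had no GAGGAA in its 250 bases and is not shown, so the choice of sequences does not link the motif to shared variation. The stretches are chr4:136886201-136886450 (minus strand) for C1qb, chr4:136893066-136893164 (minus strand) for C1qc, chrX:96293439-96293688 (minus strand) for Vsig4, chr3:87357631-87357880 (plus strand) for Cd5l and chr6:83656188-83656366 (minus strand) for Clec4f. Bases that fall inside the GENCODE gene are left off for C1qc and Clec4f.
C1qb: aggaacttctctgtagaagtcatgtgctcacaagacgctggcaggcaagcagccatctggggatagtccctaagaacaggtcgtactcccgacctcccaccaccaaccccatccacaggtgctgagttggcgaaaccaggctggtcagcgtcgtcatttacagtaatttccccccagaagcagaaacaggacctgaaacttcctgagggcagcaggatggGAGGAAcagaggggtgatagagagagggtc
C1qc: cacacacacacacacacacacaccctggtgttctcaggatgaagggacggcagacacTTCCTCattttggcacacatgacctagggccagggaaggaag
Vsig4: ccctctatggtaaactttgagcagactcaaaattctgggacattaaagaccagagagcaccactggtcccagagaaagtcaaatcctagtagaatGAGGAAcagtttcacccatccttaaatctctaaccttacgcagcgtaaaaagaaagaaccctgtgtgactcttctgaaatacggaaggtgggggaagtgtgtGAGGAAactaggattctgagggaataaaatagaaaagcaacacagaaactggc
Cd5l: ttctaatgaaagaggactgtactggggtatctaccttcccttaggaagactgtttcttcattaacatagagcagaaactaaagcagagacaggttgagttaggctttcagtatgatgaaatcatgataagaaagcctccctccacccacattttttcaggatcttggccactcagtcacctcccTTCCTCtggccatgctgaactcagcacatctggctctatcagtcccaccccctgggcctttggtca
Clec4f: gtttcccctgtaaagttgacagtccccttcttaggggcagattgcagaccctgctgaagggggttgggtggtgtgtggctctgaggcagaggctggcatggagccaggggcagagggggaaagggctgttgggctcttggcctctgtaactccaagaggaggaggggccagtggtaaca

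Within the 250 bases, GAGGAA was found on either strand for 5 of the 7 genes with sequence (Marco, Cd5l, C1qb, C1qc and Vsig4), and in 23.1% of the 27025 promoters of the table. It began 30 bases before the start of C1qb and stood at 2 places upstream of Vsig4. The longer form GAGGAAGT was found only for C1qc among the 7, and in 2.44% of all promoters. TGCTGA, a motif bound by MAF factors that does not overlap GAGGAA in its letters, was found for 4 of the 7 (Cd5l, C1qb, Clec4f and Timd4) and in 15.8% of all promoters. TGANTCA, the AP-1 motif, was found for 0 of the 7 and in 6.87% of all promoters. These are matches of letters in one window, and no binding was measured.

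To set the levels of different genes side by side, CPM was divided by the length of the merged exons in kilobases. On this scale Clec4f was highest at 31.1 ± 6.73 CPM per kilobase (SD, n = 36), followed by C1qa at 29.9 ± 6.86, Cd5l at 29.2 ± 6.97 and C1qb at 27.4 ± 6.85. These 4 neighbours did not separate: Clec4f was above C1qa in 26 of 36 libraries, C1qa above Cd5l in 20 and Cd5l above C1qb in 28. C1qc at 15.4 ± 3.68 and Vsig4 at 13.9 ± 2.82 formed the next pair, with C1qc the higher in 27 of 36 libraries. C1qb was above C1qc in 36 of 36 libraries, by 0.84 ± 0.070 (SD) on the log2 scale. Csf1r stood at 6.83 ± 1.46, below Vsig4 in 36 of 36 libraries. Adgre1 at 3.46 ± 0.893 and Timd4 at 3.34 ± 0.831 did not separate, Adgre1 being higher in 22 of 36 libraries. Marco was lowest at 0.771 ± 0.434, below Timd4 in 36 of 36 libraries, and rested on 14 to 125 counts per library.

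**Figure D1:**
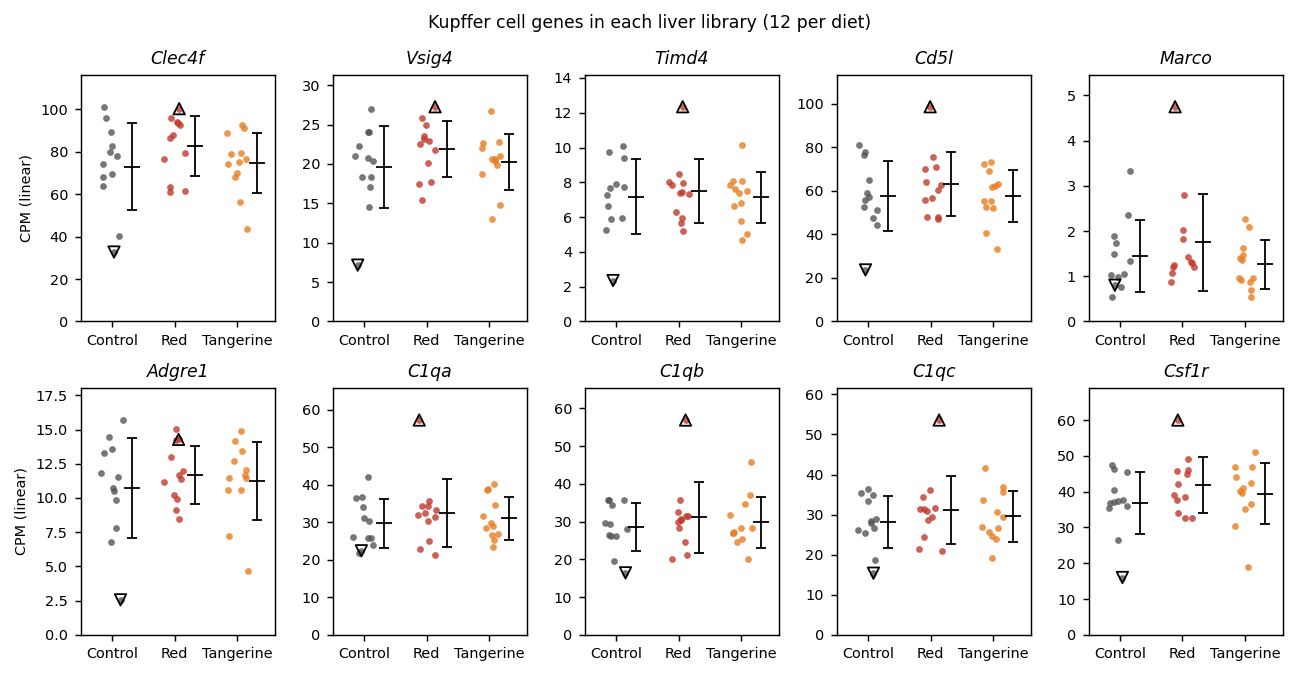
CPM (vertical axis, linear, from 0) of each of the 10 genes in every library, by diet, with 12 points per diet and the mean ± SD as a bar to the right of the points. The open downward triangle is Control 137 and the open upward triangle is Red 177. In every panel the diets overlap, and Control 137 is the lowest of all 36 libraries for 8 of the 10 genes.

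None of the 10 genes passed the threshold between any of the diets. Between red and control, 0 of 10 genes had an adjusted p below 0.05 (edgeR quasi-likelihood test, Benjamini-Hochberg over 14068 genes), where 21 genes, 0.149% of all tested, did. At an unadjusted p below 0.05 the count was also 0 of 10, against 13.3% of all tested genes, and the DESeq2 and limma-voom tests called 0 of 10 as well. DESeq2 called 167 of the 12158 genes to which it gave an adjusted p (1.37%), and limma-voom with sample weights called 1504 of 14068 (10.7%). The 10 estimates were all above 0, from 0.06 for Timd4 to 0.28 for Marco on the log2 scale, with a median of 0.14 beside -0.0047 over all tested genes. Because the 10 genes vary together between mice, they are not 10 separate measures of the diet. Without Control 137 and Red 177, a pair left out after their values were seen, the median was -0.0053 and 4 of 10 estimates were above 0. With 1 library left out at a time, the median ran from 0.055 (without Red 177) to 0.19 (without Control 188).

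For tangerine against control, 0 of 10 genes were called by edgeR, 0 at an unadjusted p below 0.05 (5.47% of all tested genes), and 0 by DESeq2 and by limma-voom with sample weights. Of all tested genes, edgeR called 2 (0.0142%), DESeq2 called 7 (0.0498%) and limma-voom called 2 (0.0142%). Estimates lay between -0.19 (Marco) and 0.10 (Csf1r), 7 above 0 and 3 below, with a median of 0.05. With 1 library left out at a time, the median ran from -0.03 (without Control 137) to 0.096 (without Tangerine 225). Between tangerine and red, 0 of 10 were called by each of the 3 tests, against 241 of all tested genes (1.71%) by edgeR, 421 of 12431 (3.39%) by DESeq2 and 746 (5.30%) by limma-voom. At an unadjusted p below 0.05 the count was 0 of 10, against 15.1% of all tested genes. All 10 estimates were below 0, from -0.47 (Marco) to -0.06, with a median of -0.08. That median ran from -0.12 (without Tangerine 192) to -0.03 (without Red 177) with 1 library left out at a time. With both tomato diets averaged and set against control, 0 of 10 were called by edgeR, against 1 gene of all tested (0.00711%), and 0 had an unadjusted p below 0.05, against 6.77% of all tested. DESeq2 called 0 of the 9 to which it gave an adjusted p, all but Marco, against 12 of 9704 genes (0.124%), and limma-voom called 0 of 10, against 34 genes (0.242%). The median estimate was 0.10, and it ran from 0.03 (without Control 137) to 0.15 (without Control 188) with 1 library left out.

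The intervals bound what these data allow. For the 9 genes other than Marco, the 95% intervals of the fold lay between 0.843 and 1.39 for red over control, 0.804 and 1.34 for tangerine over control, and 0.745 and 1.23 for tangerine over red. Standard errors of these 9 genes were 0.125 to 0.174 on the log2 scale. These bounds span the intervals of 9 genes, and the interval of a single gene is narrower, such as 0.919 to 1.30 for C1qa in red over control. A p above the threshold does not show that the diets act alike. The 3 comparisons share libraries, so their estimates are not independent of each other.

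**Figure D2:**
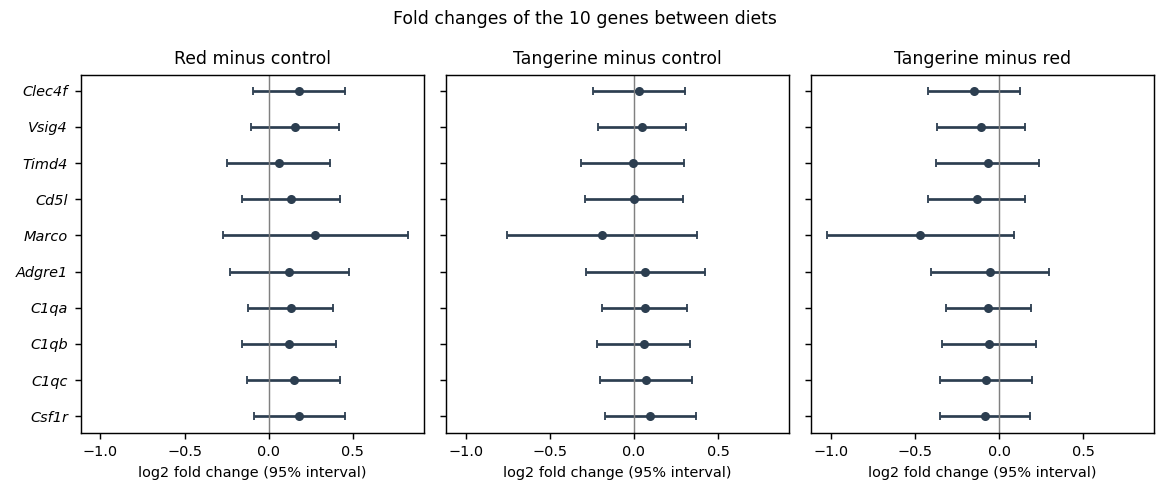
Log2 fold change (horizontal axis) of each gene with its 95% interval from the edgeR fit, for red minus control, tangerine minus control and tangerine minus red. Each interval crosses 0, and Marco has the widest, with standard errors of 0.272 to 0.278.

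Clec4f encodes a C-type lectin that in mice marks Kupffer cells. It ran from 32.7 to 101 CPM in the control livers (median 76.1), from 60.9 to 100.3 in the red (median 87.1) and from 43.6 to 92.8 in the tangerine (median 76.0). The diets overlapped over most of their range, and 9 of 12 red libraries were above the control median. The estimate for red against control was 0.18 ± 0.136 (SE, log2), with an adjusted p of 0.593.

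Vsig4 encodes a complement receptor that binds fragments of C3 on microbes. Its level was 7.16 to 27.0 CPM in the controls (median 20.6), 15.4 to 27.3 in the red group (median 22.7) and 13.1 to 26.7 in the tangerine group (median 20.6). Only the lowest control library, Control 137, lay clearly below the other diets. The red against control estimate was 0.16 ± 0.129 (SE), adjusted p 0.629.

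Timd4 encodes a receptor for phosphatidylserine on dying cells and marks long-lived resident macrophages. Control libraries held 2.35 to 10.1 CPM (median 7.45), red 5.19 to 12.3 (median 7.42) and tangerine 4.67 to 10.1 (median 7.46). The medians were nearly the same, and 5 of 12 red libraries were above the control median. Its estimates were the closest to 0 in the red against control comparison, 0.06 ± 0.151 (SE), adjusted p 0.899.

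Cd5l encodes a secreted scavenger protein of tissue macrophages. It was 23.7 to 80.8 CPM in controls (median 56.3), 47.3 to 98.6 in red (median 61.5) and 33.2 to 73.3 in tangerine (median 58.5). Red 177 held the highest value and Control 137 the lowest, with the groups otherwise overlapping. Red against control gave 0.13 ± 0.143 (SE), adjusted p 0.730, and tangerine against control gave -0.00068.

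Marco encodes a scavenger receptor for bacteria and particles. Control libraries held 0.544 to 3.33 CPM (median 1.19), red 0.873 to 4.75 (median 1.31) and tangerine 0.536 to 2.26 (median 1.16). The group medians differed by far less than the spread within a group, and 10 of 12 red libraries were above the control median. Tangerine against red gave the largest estimate among the 10 genes, -0.47 ± 0.274 (SE), with an unadjusted p of 0.0955 and an adjusted p of 0.422. Leaving out Tangerine 226 moved the estimate to -0.58, lowered the unadjusted p to 0.0443 and left the adjusted p at 0.308. Leaving out Red 177, which held the highest value, moved the estimate to -0.23.

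Adgre1 encodes F4/80, the surface protein by which mouse macrophages are most often stained. It was 2.55 to 15.7 CPM in controls (median 11.1), 8.48 to 15.005 in red (median 11.6) and 4.63 to 14.9 in tangerine (median 11.6). The lowest control and tangerine libraries were Control 137 and Tangerine 225, and the rest overlapped. Red against control was 0.12 ± 0.174 (SE), adjusted p 0.803.

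C1qa, C1qb and C1qc encode the chains of C1q, the recognition part of the first complement complex, which in the liver comes mainly from macrophages. C1qa ran from 21.8 to 42.0 CPM in controls (median 28.2), 21.3 to 57.3 in red (median 32.2) and 23.3 to 40.2 in tangerine (median 29.4). C1qb ran from 16.4 to 35.8 (median 28.7), 20.004 to 56.9 (median 30.6) and 20.1 to 45.8 (median 27.7) in the same order. For both genes the highest value of all belonged to Red 177 and the groups overlapped. C1qc ran from 15.4 to 36.4 CPM in controls (median 28.2), 20.9 to 53.6 in red (median 31.1) and 19.2 to 41.7 in tangerine (median 28.2). Red against control estimates were 0.13 ± 0.125 (SE) for C1qa, 0.12 ± 0.137 for C1qb and 0.15 ± 0.135 for C1qc, with adjusted p-values of 0.690, 0.750 and 0.675.

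Csf1r encodes the receptor for the growth factors CSF1 and IL-34, on which Kupffer cells depend, and lies on the plus strand of chromosome 18, from 61100598 to 61132149. It overlaps Hmgxb3 on the opposite strand and Mir6983 on its own strand, so reads in the shared stretches are uncertain, because the strand setting of the counting and the treatment of shared reads are not known. Csf1r was 16.0 to 47.3 CPM in controls (median 37.3), 32.7 to 60.1 in red (median 40.7) and 18.9 to 51.0 in tangerine (median 40.7). As for Clec4f, 9 of 12 red libraries were above the control median, and the ranges overlapped. Red against control was 0.18 ± 0.133 (SE), adjusted p 0.578, the smallest adjusted p of the 10 genes in that comparison.

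Mice on the same diet differed from each other by more than the diets did on average. Within diets the coefficient of variation was 20.7% (Vsig4) to 26.7% (Adgre1) for the 9 genes other than Marco, and 53.7% for Marco. The within-diet SD of log2 CPM was 2.54 times (Marco) to 11.1 times (Clec4f) the SD that counting alone gives. The biological coefficient of variation fitted by edgeR was 21.2% (C1qa) to 29.3% (Adgre1) for the 9 genes and 44.1% for Marco, against a median of 15.2% over all tested genes.

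This variation was shared by the 10 genes. After removing diet means, Pearson's r between pairs of genes over the 36 libraries was 0.493 (Marco with Adgre1) to 0.980 (C1qb with C1qc), with a median of 0.819 over the 45 pairs, and Spearman's rho was 0.531 to 0.963 with a median of 0.774. All 45 pairs had an adjusted p below 0.05 (two-sided permutation, 100000 resamples, Benjamini-Hochberg over the 45 pairs). The largest raw p was 0.00236, adjusted 0.00236, and 36 pairs had the smallest p the permutations can give, 1e-05 (adjusted 1.25e-05). Leaving out for each pair the 2 libraries farthest from the median of the first gene gave r of 0.466 to 0.972, median 0.767. Within diets the median r was 0.892 in control, 0.829 in red and 0.793 in tangerine livers, each over 12 libraries.

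The pairs fell into layers. The C1q chains with each other gave r of 0.936 to 0.980 over 3 pairs. The 6 genes other than Marco and the C1q chains gave 0.831 to 0.945 among themselves over 15 pairs, and 0.662 to 0.934 without the 2 farthest libraries. C1q chains with those 6 gave 0.630 to 0.896 over 18 pairs, with a median of 0.775. Marco followed the other 9 genes least, with r of 0.493 to 0.667 and a median of 0.623, and its counts were the lowest of the 10. The first principal component of the 10 genes held 82.2% of their variance, and 79.8% without Control 137 and Red 177. On the second component, with 7.74% of the variance, C1qa (0.486), Marco (0.460), C1qb (0.334) and C1qc (0.265) lay opposite Adgre1 (-0.394) and Vsig4 (-0.257).

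**Figure D3:**
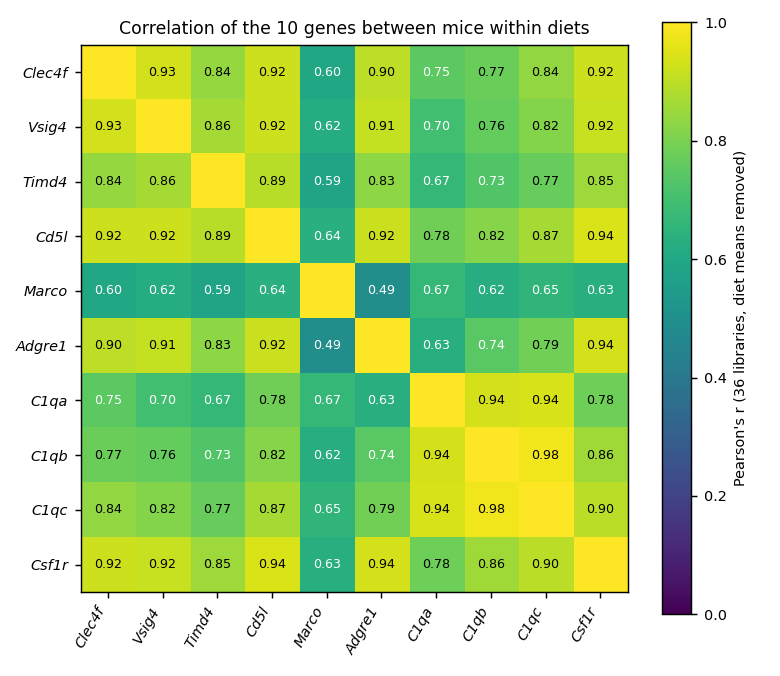
Pearson's r of each pair of genes over 36 libraries, with diet means removed, as a colour from 0 to 1 and a printed value. C1qb and C1qc are highest at 0.980, and the row of Marco is the lowest, with 0.493 for Adgre1.

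Several mice were low or high for all 10 genes together. The mean standardised level of the 10 genes (log2 CPM with diet means removed, divided by the SD of each gene) was -2.82 in Control 137, -1.84 in Tangerine 225 and -1.37 in Control 136, and each of these had all 10 genes below its diet mean. Red 177 was highest at 1.81, with all 10 genes above its diet mean. In CPM, Red 177 was the highest of 36 libraries for 8 of 10 genes, the others being Clec4f and Adgre1. The exceptions to Control 137 as the lowest were Marco and C1qa.

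**Figure D4:**
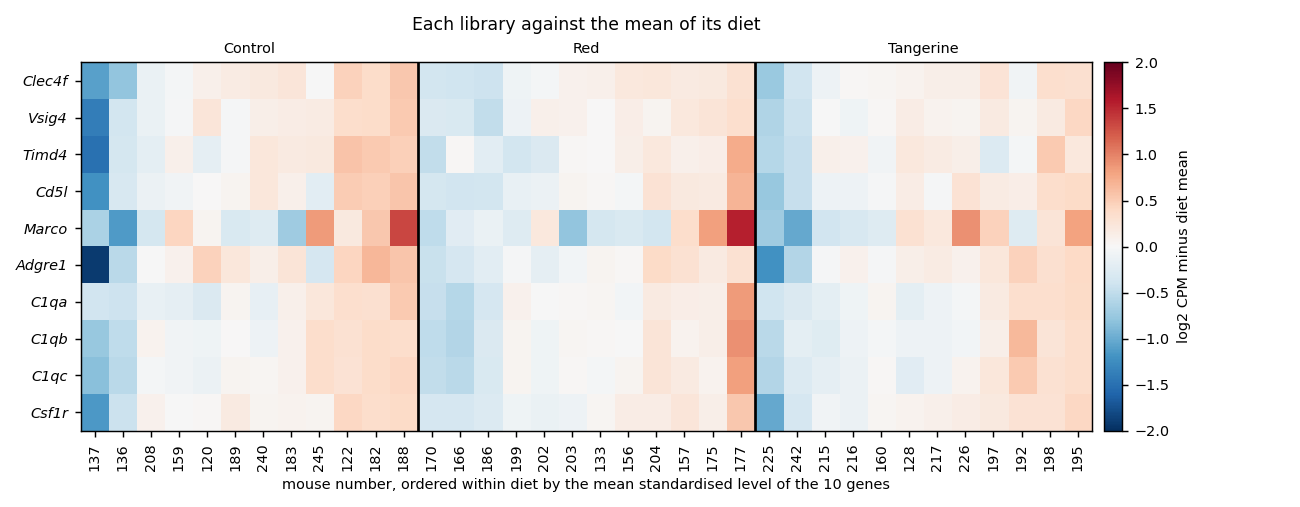
Log2 CPM minus the diet mean (colour, from -2 to 2) of each gene (rows) in each library (columns, by mouse number, ordered within diet by the mean standardised level of the 10 genes). Whole columns share a colour, with Control 137 at -2.82 on the mean standardised level and Red 177 at 1.81.

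The gap of Control 137 to the other controls differed from gene to gene. The median of the other controls was 4.52 times its value for Adgre1, 3.26 times for Timd4, 2.90 times for Vsig4 and 2.41 times for Cd5l. For the C1q chains it was 1.35 times (C1qa), 1.79 times (C1qb) and 1.84 times (C1qc). Cd163, the haemoglobin scavenger receptor of tissue macrophages, stood at 1.30 CPM against 10.8 CPM, a ratio of 8.27. Control 137 was below every other control for 8 of the 10 genes, for 15 of 21 other macrophage genes and for 11 of 11 sinusoidal endothelial genes. Across all tested genes this held for 3225 of 14068, 22.9%, and it held for 1 of 8 hepatocyte genes and 3 of 11 stellate cell genes. In the other direction, Control 137 was above every other control for 3119 of 14068 tested genes, 3 of 8 hepatocyte genes and 0 of the 10. Its difference from the other controls was thus not limited to macrophage and endothelial genes. What sets this library apart was not tested, including the part of depth and of the amount of sinusoidal cells.

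Outside the list, the genes most like the 10 were ranked by r with their mean standardised level over 36 libraries, with diet means removed. Cfp, properdin of the complement system, was first with r 0.947 (rho 0.955), and r was 0.947 without the 2 farthest libraries, Control 137 and Tangerine 225. Slc11a1, a metal transporter of phagosomes, followed with 0.905, Axl, a receptor for dying cells, with 0.900, and Siglec1, a sialic acid receptor, with 0.889. Fpr1 (0.879), Sdc3 (0.874), Slc15a3 (0.872), Cd300ld (0.865), Pla2g7 (0.863) and Lgmn (0.859) completed the 10. Without the 2 farthest libraries the r of the genes after Cfp was 0.746 (Lgmn) to 0.888 (Slc11a1). Of 14058 tested genes, 407 (2.90%) reached an r above 0.5, and 1.33% did without those 2 libraries. Marco had its own neighbours, the chemokine genes Cxcl13 (0.753) and Ccl24 (0.736) and Siglece (0.709), and Timd4 was closest to Adgre4 (0.884) among genes outside the list. These values are descriptions, since all genes come from the same libraries.

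Other macrophage genes followed the 10, and monocyte genes did not. Of 21 tested genes of resident and tissue macrophages, 18 had an r above 0.5, with a median of 0.658. Without the 2 farthest libraries 15 of 21 did and the median was 0.658. Slc40a1, the iron exporter (0.07), and Hpgd, which degrades prostaglandins (0.02), were far below the rest of that list. Of the 8 tested genes of monocytes and recruited macrophages, 0 had an r above 0.5 and the median was 0.06. Sinusoidal endothelial genes had a median of 0.677 with 10 of 11 above 0.5. Without Control 137 and Tangerine 225 only 1 of 11 was above 0.5. Their median was then 0.324, beside -0.019 over all tested genes outside the 10, so that this likeness was weaker, though not absent, without those libraries. The summed level of the 11 endothelial genes was 146 to 442 CPM in control, 340 to 440 in red and 218 to 416 in tangerine livers, with Control 137 and Tangerine 225 the lowest of their diets.

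Most macrophage transcription factors had a lower r with the 10 genes. Of 13 tested transcription factors, 3 had an r above 0.5: Tfec (0.732), Spi1 (0.584) and Spic (0.519), a factor of iron-recycling macrophages. Nr1h3, which encodes the Kupffer cell factor LXR-alpha, had an r of -0.12, and Id3 and Id1 had -0.32 and -0.33, all genes that other liver cells also express. The ligand genes Csf1 and Il34 had r of 0.00015 and 0.17. Bmp2 (0.745) and Csf2rb (0.668) were the highest of the 11 tested growth factor and niche genes. Without Control 137 and Tangerine 225, Tfec had 0.526, Spi1 0.531, Spic 0.371, Bmp2 0.540, Csf2rb 0.510, and Nr1h3 turned to 0.329. The partners of C1q were further from the 10 genes: C1ra and C1rb had r of 0.13 and 0.036. C1s1 had -0.50 (rho -0.21) and C1s2 0.30 (rho -0.043). Without Control 137 and Tangerine 225 the r values were -0.20 and -0.053, so both depended on those libraries.

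**Figure D5:**
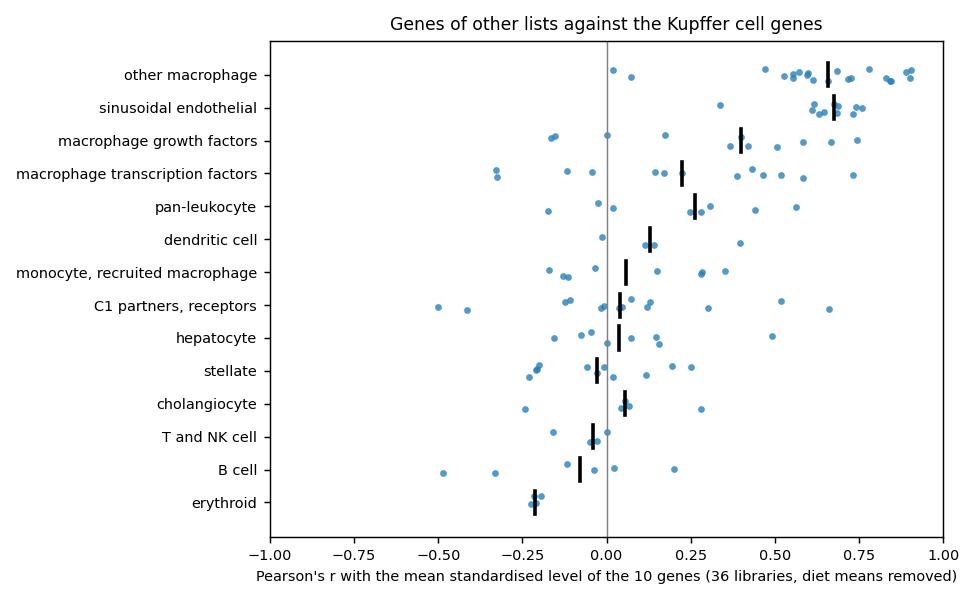
Pearson's r of single genes (points) with the mean standardised level of the 10 Kupffer cell genes over 36 libraries, with diet means removed, by list, and the median of each list as a bar. Other macrophage genes (median 0.658) and sinusoidal endothelial genes (median 0.677) lie to the right, and hepatocyte, stellate and T and NK cell genes lie around 0.

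The lists of other macrophage, monocyte and complement genes were also without a call between the diets. Of all tested genes, 13.3% had an unadjusted p below 0.05 by edgeR in red and 5.47% in tangerine, each against control. The share was 15.1% for tangerine against red and 6.77% for both tomato diets against control. Among 21 tested of 22 other macrophage genes, 0 were called by edgeR in each of the 4 comparisons, with 1 or 2 below an unadjusted p of 0.05 in each. Their median estimate was 0.12 for red and 0.037 for tangerine, each against control, 0.016 between the tomato diets and 0.069 for both against control. Laptm5, a lysosomal protein of blood cells, had the smallest p in red against control, with an estimate of 0.38 ± 0.161 (SE) and an adjusted p of 0.299. Of the 14 transcription factors 13 were tested and 0 were called, with 1 below an unadjusted p of 0.05 in each comparison. Of 13 growth factor and niche genes 11 were tested and 0 were called, with at most 3 below an unadjusted p of 0.05. Of the 14 partners and receptors of C1q 0 were called, with at most 3 below an unadjusted p of 0.05, and Cr1l, a complement regulator, came nearest at 0.12 ± 0.0376 (SE) in tangerine against red, adjusted p 0.0832. Of 14 monocyte and recruited macrophage genes 8 were tested and 0 were called, with at most 2 below an unadjusted p of 0.05, and Gpnmb, a gene of lipid-laden macrophages, came nearest in tangerine against red, 2.69 ± 0.845 (SE), adjusted p 0.0934, and had 3.27 ± 0.900 (SE), adjusted p 0.553, for tangerine minus control. Its estimate rests on Tangerine 192 with 41.5 CPM, where the next tangerine library held 2.63 CPM and the control and red libraries at most 1.32 and 3.05 CPM. The macrophage genes Fcna, Irf8, Ccl2 and Itgam were listed at 0 in every library. The same held for Lrat, Alas2, Ms4a1, Cela2a and Per3 of the lists of other cell types and clock genes. Whether a 0 here means no expression or a gap in the count table was not tested. Lists of other cell types held calls in tangerine against red only for 3 of 4 tested T and NK cell genes, which fell, and for the hepatocyte gene Cps1, which rose by 0.40 ± 0.108 (SE, adjusted p 0.0446). Trbc2 of the T cell receptor fell by 2.89 ± 0.748 (SE, adjusted p 0.0359), Lck fell by 2.59 and Thy1 fell by 2.37 (adjusted p 0.0413 each). Red 186 held 57.2 CPM of Trbc2 where every other library held at most 1.20 CPM. Of 12 tested clock genes, 3 rose and 4 fell in the same comparison, where edgeR called 1.71% of all tested genes. In red against control 0 of the 12 were called by edgeR, against 0.149% of all tested genes. There 11 of the 12 had an unadjusted p below 0.05, against 13.3% of all tested genes. With a clock score (the first principal component of these genes) as covariate, edgeR called 0 of all tested genes in tangerine against red. It then called 3 in red against control, where the median of the 10 Kupffer cell genes was 0.093.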

How the data were processed

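Liver RNA from 36 mice was made into directional libraries, per the labels' protocols. The authors deposited 1 table of raw counts per gene, with no normalization. The submitters' processing notes name FastQC, Trimmomatic, edgeR and GRCm38.p6. The aligner, counting program, annotation release, strand setting and treatment of shared reads are not given in the sources used here.

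Symbols and positions came from GENCODE M21 by Ensembl identifier without version, which named 53620 of 53715 identifiers. Identifiers without a symbol held 0.00177% of the counts. Each library is 1 mouse by the number in its label, and the labels give 11 to 12 mice per group, beside 12 libraries. Whether mice shared a cage or extraction batch is not known, so p-values measure the spread between these libraries. The most alike pair of libraries had a chi-square per degree of freedom of 13.7, so all were kept apart.

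Counts were filtered with filterByExpr (edgeR 4.0.16, count 10, total 15), TMM scaled, and fitted with the robust quasi-likelihood test over all 36 libraries without covariates. P-values were adjusted by Benjamini-Hochberg over 14068 genes within a comparison, threshold 0.05. Standard errors are the absolute log2 fold change over the root of F, and 95% intervals use the t quantile. Log2 CPM used a prior count of 2. Alternatives were other scaling and filters, DESeq2 1.42.0, limma-voom with sample weights (limma 3.58.1), covariates and left-out libraries, and the closing section gives their effect. The fit was tested on simulated data. The members and lists were chosen with earlier results of these data known. Named genes are all 10 members, in each list up to 3 genes past the threshold or else the 1 or 2 with the smallest p, and the 10 genes most like the members. Other genes given by r, and those of Control 137, were chosen after their values were seen. Molecular identifiers are not mentioned, so counting error covers reads only.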

Additional observations from a re-analysis of the deposited data

How the results depend on the processing

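The number of the 10 genes called stayed at 0 in all 147 alternative counts. Each count is 1 comparison under 1 alternative setting, so most fits were counted for more than 1 of the 4 comparisons. The filter at a mean log2 CPM of 1 left 9 genes, and DESeq2 gave Marco no adjusted p for both tomato diets against control. Single-gene estimates crossed 0 in 75 alternative values, none of them past the threshold. These were counted among 1613 values that also hold the median of the 10 genes in each fit. A crossing of 0 by that median was not counted. In red against control, Timd4 was -0.068 with limma-voom and sample weights, the form used throughout. Leaving out Control 137 and Red 177, a choice made after seeing the data, gave Timd4 -0.11, Cd5l -0.017, Marco -0.013, C1qa -0.0041, C1qb -0.048, C1qc -0.0064. For tangerine and control, Cd5l was 0.0045 with DESeq2 size factors, 0.0075 without a filter, 0.0045 with a minimum mean log2 CPM of 1, 0.0048 with the DESeq2 test, 0.013 with the clock score (the first principal component of clock genes) as covariate, 0.0095 with mouse number and 0.011 without Red 186 and Tangerine 216. There limma-voom gave -0.021 for Adgre1, and the fit without Control 137 and Red 177 gave Clec4f -0.039, Vsig4 -0.030, Adgre1 -0.025. Between the tomato diets, limma-voom gave 0.034 for Timd4, the clock score gave 0.060 for Adgre1, and the fit without those libraries gave Timd4 0.019, C1qa 0.038, C1qb 0.051, C1qc 0.020. For both tomato diets against control, limma-voom gave -0.050 for Timd4 and -0.011 for Cd5l, and the fit without those libraries gave Timd4 -0.10, Cd5l -0.046, Marco -0.13, Adgre1 -0.012, C1qb -0.022. The cause was not tested.

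Leaving out each library in turn, the estimates that crossed 0 ranged, for tangerine and control, from -0.025 to 0.14 for Adgre1, -0.015 to 0.10 for C1qb, -0.075 to 0.054 for Cd5l, -0.039 to 0.084 for Clec4f, -0.090 to 0.046 for Timd4, -0.030 to 0.10 for Vsig4. Between the tomato diets they ranged from -0.10 to 0.019 for Adgre1, -0.11 to 0.038 for C1qa, -0.13 to 0.051 for C1qb, -0.13 to 0.020 for C1qc, -0.12 to 0.019 for Timd4. In red against control the range was -0.027 to 0.11 for Timd4, and for both tomato diets against control it was -0.0082 to 0.12 for Cd5l, -0.076 to 0.23 for Marco, -0.056 to 0.080 for Timd4. The fit with only the groups compared gave no separate value for both tomato diets against control, which uses all groups. No paired analysis was possible because no mouse number occurs in more than 1 diet. Depth limits Marco most, whose libraries held 14 to 125 counts.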
